A study of Homo sapiens with 4 samples.

Results

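Chromosome 19 carries the densest collection of zinc finger genes in the human genome. Their messenger RNA was followed here in TPC1, an established cell line from a human papillary thyroid carcinoma that carries a CCDC6-RET fusion. Members were the rows of the deposited count table on chromosome 19 whose symbol is ZNF followed by a number, which gave 253 of 20372 rows. These hold 248 different symbols, and 5 rows repeat a symbol. A member was taken as measured with at least 10 raw reads summed over the 4 libraries, which left 180 measured and 73 under that minimum. Just outside were ZNF571 with 8 reads and ZNF154 with 9, and just inside were ZNF625, ZNF569 and ZNF470 with 11 reads each.

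The cells of 1 group received the RET inhibitor BLU6864 for 6 h, and those of the other group received the solvent DMSO. Each group had 2 libraries (n = 2), and all 4 came from the same line, grown in DMEM with serum. The dose of BLU6864 is uncertain, because the labels and the study give different units. No time is given for DMSO in the labels, and its columns carry 24 h, so that an effect of BLU6864 and one of culture time cannot be told apart. The titles of both BLU6864 libraries also carry the mark re-analysis, and those of the DMSO libraries do not. Any difference behind this mark cannot be told apart from BLU6864 either. Nothing says that libraries 1 and 2 of a group came from separate cultures, so every p-value measures the spread between these libraries, which may be technical.

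Most chromosome 19 zinc finger genes arose by repeated local duplication, so that close relatives lie side by side in clusters. Their proteins carry rows of C2H2 zinc fingers that bind DNA, and many carry a KRAB domain that recruits the corepressor TRIM28, which in turn brings the histone methyltransferase SETDB1 and heterochromatin proteins. Many are known to bind transposable elements. Neighbouring members therefore resemble each other in sequence, and reads from one copy can match another.

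That likeness is visible in the bases themselves. The run of 18 bases found in the largest number of member transcripts falls in the stretch that codes for the linker between consecutive fingers, and it is shown because it is the signature the family repeats.
Linker run: TCATACTGGAGAGAAACC
It was present in 97 of 244 members with a reference transcript (39.8%), and in 46 of 18475 other genes (0.249%), all 46 of them with zinc finger gene names. ZNF208 held the most copies, 22. Of the 97 members with the run, 46 were tested, and their median log2 fold change of BLU6864 over DMSO was 0.11, against 0.14 for the 115 tested members without it.

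Promoters of neighbours can be nearly the same as well. Below are the RefSeq promoter windows (GRCh38.p14, 250 bases before to 50 after the annotated start, written 5′ to 3′ on the gene's strand) of ZNF443 and ZNF799, the 2 members with the lowest log2 fold changes, and of ZNF175, the next lowest. ZNF443 and ZNF799 could be aligned over 211 bases, of which 197 were identical (93.4%), and capitals mark the 14 that differ. In ZNF175 capitals mark the letters CCGGAAGT, the core read by ETS factors, at position 233 of the window.
ZNF443, chr19:12440972-12441271, minus strand: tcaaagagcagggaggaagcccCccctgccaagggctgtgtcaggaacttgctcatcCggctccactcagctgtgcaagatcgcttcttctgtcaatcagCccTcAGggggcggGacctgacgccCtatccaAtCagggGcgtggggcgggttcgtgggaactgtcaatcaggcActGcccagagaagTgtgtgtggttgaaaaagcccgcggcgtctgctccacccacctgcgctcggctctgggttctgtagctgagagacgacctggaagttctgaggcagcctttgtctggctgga
ZNF799, chr19:12401222-12401521, minus strand: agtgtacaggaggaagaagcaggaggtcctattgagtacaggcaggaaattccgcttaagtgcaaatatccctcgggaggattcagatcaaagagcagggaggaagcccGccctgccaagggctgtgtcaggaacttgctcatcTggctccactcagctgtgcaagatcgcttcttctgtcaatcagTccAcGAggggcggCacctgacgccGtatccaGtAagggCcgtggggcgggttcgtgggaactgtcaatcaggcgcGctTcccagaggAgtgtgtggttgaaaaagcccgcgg
ZNF175, chr19:51571033-51571332, plus strand: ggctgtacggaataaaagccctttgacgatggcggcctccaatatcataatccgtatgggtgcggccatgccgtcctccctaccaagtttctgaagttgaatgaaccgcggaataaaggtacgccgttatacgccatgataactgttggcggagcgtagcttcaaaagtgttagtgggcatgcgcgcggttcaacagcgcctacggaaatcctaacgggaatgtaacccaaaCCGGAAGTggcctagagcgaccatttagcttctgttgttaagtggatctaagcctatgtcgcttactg

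The 4 libraries held between 23750509 and 28305571 reads over the genes of the table, and the members took 0.131% to 0.142% of them in each library. Of the line's thyroid markers, PAX8, FOXE1, HHEX and TG had reads in every library, NKX2-1 and TSHR had 0 reads, and SLC5A5 had fewer than 10. The 4 with reads in every library were lower with BLU6864 in edgeR, from PAX8 (log2 fold change −0.36, adjusted p = 0.026) to TG (−0.85, adjusted p = 1.8e-05). The keratins KRT8, KRT18 and KRT19 were present, of which KRT18 was lower (−1.02, edgeR adjusted p = 3.5e-08). CD3E and DCN were at 0 and CDH5 had 2 reads. In the lists of other cell types the summed normalized counts ran from 43.1 to 50.4 with BLU6864 and from 18.6 to 21.1 with DMSO for 3 leukocyte genes, nearly all of them CD14, and from 547 to 571 and from 347 to 387 for 3 fibroblast genes. Their part in the results below was not tested.

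Members were low in abundance, and many had few or no reads. Of the 253 rows, 42 had 0 reads in all 4 libraries, for which the counting limit is 3 reads in a library, and 17 of these 42 overlap another row of the table. The 161 members that passed the filter on low counts had a median normalized read count of 152, against 810 over all 12696 genes tested. Normalized per kilobase of transcript, ZNF581 stood highest at 564, followed by ZNF146 at 423 and ZNF358 at 385, while the median tested member had 34.2 and the lowest 1.82.

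Members with few reads lay in stretches along the chromosome. With members ordered by start, those under 10 reads formed 34 runs, of which 14 held at least 2 members. The longest was 12 consecutive members from ZNF429 to ZNF730 over 1651 kb (hg19, chromosome 19, 21679484 to 23330021), which together had 11 reads, with 7 members at 0. The next was 7 members from ZNF610 to ZNF701 over 251 kb with 6 reads in all, and then 6 members from ZNF878 to the read-through entry ZNF625-ZNF20 with 7 reads. Members with and without reads could have nearly the same promoter: ZNF808, known for binding retroelements, had 0 reads while ZNF611 had 1012, with promoter windows identical at 261 of 285 aligned bases (91.6%).

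**Figure D1:**
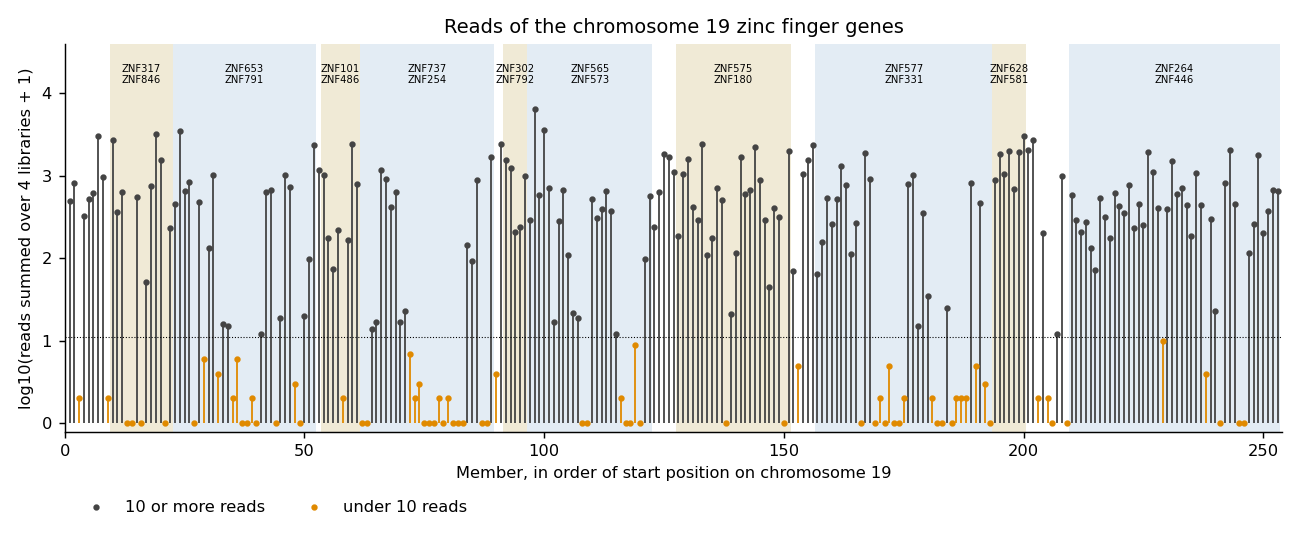
Reads summed over the 4 libraries for each of the 253 members in order of start position, as log10 of the sum plus 1; orange marks the 73 members under 10 reads, the dotted line is that minimum, and shading marks the 10 clusters with at least 5 tested members. Orange members gather in runs, the longest being 12 members in the ZNF737 to ZNF254 cluster.

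With BLU6864, 27 of the 161 tested members were higher and 11 were lower than with DMSO in edgeR's quasi-likelihood test at an adjusted p under 0.05. That is 23.6% called, against 42.2% of all 12696 genes tested. By direction, 16.8% of members were called higher, against 20.3% of all genes, and 6.83% lower, against 22.0%. The median log2 fold change of the tested members was 0.14, with quartiles of −0.09 and 0.33, and 107 of 161 lay above 0 (66.5%). Over all genes tested the median was 0.01 and 51.2% lay above 0. Other chromosome 19 genes had a median of 0.05 over 706 tested, with 20.8% called higher and 14.7% lower. For ZNF genes of other chromosomes the median was 0.07 over 219 tested, with 18.7% called higher and 13.2% lower.

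The share called rose with abundance among the members, and at each level it was below that of other genes. Among members with a mean normalized count under 100, 7 of 55 were called (12.7%), against 35.4% of other genes at that level. Between 100 and 300 it was 19 of 72 (26.4%, and 650 of 1476 other genes), and at 300 or more it was 12 of 34 (35.3%, other genes 43.8%). All 11 called lower lay at 100 or more. The calls also depended on the method and the libraries, and so did the number called over all genes. DESeq2 called 9 members higher, against 27 in edgeR, and over all genes it called 4403, against 5364. Fewer members were called in either direction when either BLU6864 library was left out, and fewer genes over the whole set. Without DMSO replicate 2 more members were called higher and more genes were called over all. A run without a library leaves 1 library in its group. Of the 38 called members, 9 were called under all 11 alternatives, 5 of them lower and 4 higher.

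In each of these 9 both BLU6864 libraries lay on the same side of both DMSO libraries. The lowest log2 fold changes belonged to a pair of neighbours. ZNF443, a KRAB zinc finger gene (hg19, chromosome 19, 12540521 to 12551926), had normalized counts of 78.8 and 74.9 with BLU6864 and 255 and 337 with DMSO. Its log2 fold change was −1.94 ± 0.17 (SE), with an adjusted p of 7.5e-10 in edgeR. ZNF799 (12500830 to 12512085) lies 28.4 kb away on the same strand. It had 123 and 147 normalized counts with BLU6864 and 308 and 449 with DMSO, a log2 fold change of −1.47 ± 0.17 (edgeR, adjusted p = 6.8e-08). Both members thus fell to less than the lower DMSO value in both treated libraries.

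Whether these are separate measurements is uncertain. Of the 50-base words in the ZNF443 transcript, 32.2% also occur in ZNF799, and 24.1% of those in ZNF799 occur in ZNF443, and how reads that match several genes were counted is not given in the sources used here. Summed over both genes, the raw reads were 192 and 237 with BLU6864 and 615 and 718 with DMSO, a difference that any exchange of reads between the pair leaves as it is. It was the only pair of neighbouring members in which both were called lower.

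ZNF175, known as a repressor of the HIV promoter in macrophages, lies with no other member within 250 kb (52074551 to 52092991). Its normalized counts were 343 and 348 with BLU6864 and 779 and 932 with DMSO, a log2 fold change of −1.30 ± 0.12 (edgeR, adjusted p = 2.6e-09). Only 1.7% of its 50-base words occur in other genes. ZNF792 (35447258 to 35454953) had 163 and 176 with BLU6864 and 350 and 295 with DMSO, a log2 fold change of −0.93 ± 0.14 (edgeR, adjusted p = 9.5e-06). In both genes the pair of treated values was tight and the gap to DMSO was wider than the spread of the DMSO pair.

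ZNF146 encodes a protein made almost wholly of zinc fingers, without a KRAB domain, and had the most reads of the members, 6438. Its normalized counts were 1348 and 1163 with BLU6864 and 2040 and 1843 with DMSO (log2 fold change −0.63 ± 0.11, edgeR adjusted p = 4.3e-05). It overlaps ZNF565 on the opposite strand by 31.7 kb, and ZNF565 was called in the other direction, with a log2 fold change of 0.53 ± 0.21 (edgeR, adjusted p = 0.044, lost in DESeq2). The other 6 members called lower, ZNF121, ZNF526, ZNF557, ZNF507, ZNF562 and ZNF584, had log2 fold changes between −0.51 and −0.31. Each of these 6 lost its call when either BLU6864 library was left out.

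No member called higher moved as far as ZNF443, ZNF799 or ZNF175. ZNF181 (35225060 to 35233777) led them, with normalized counts of 393 and 402 with BLU6864 and 193 and 272 with DMSO, a log2 fold change of 0.79 ± 0.15 (edgeR, adjusted p = 9.9e-05). ZNF420, also known as Apak and described as a regulator of p53, had 158 and 165 with BLU6864 and 95.2 and 96.3 with DMSO (log2 fold change 0.76 ± 0.17, edgeR adjusted p = 0.00069). Its 2 DMSO values nearly coincided. It lies at 37498759 to 37621216 and 2 other rows of the table overlap it.

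ZNF675, which encodes an inhibitor of the TRAF6 signalling adaptor, had normalized counts of 261 and 299 with BLU6864 and 133 and 206 with DMSO, a log2 fold change of 0.74 ± 0.17 (edgeR, adjusted p = 0.00076). ZNF524, described as a protein of telomeres, had 308 and 318 with BLU6864 and 241 and 177 with DMSO (log2 fold change 0.58 ± 0.15, edgeR adjusted p = 0.0026). In ZNF675 it was DMSO replicate 1 that was the lower control and in ZNF524 it was DMSO replicate 2. ZNF419 had a log2 fold change of 0.76 ± 0.19, with 120 and 145 normalized counts with BLU6864 and 66.8 and 91.9 with DMSO. Its call (edgeR, adjusted p = 0.0026) was lost without BLU6864 replicate 2. ZNF90, ZNF613 and ZNF441 had log2 fold changes of 0.53, 0.53 and 0.58, and each lost its call without at least 1 library.

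**Figure D2:**
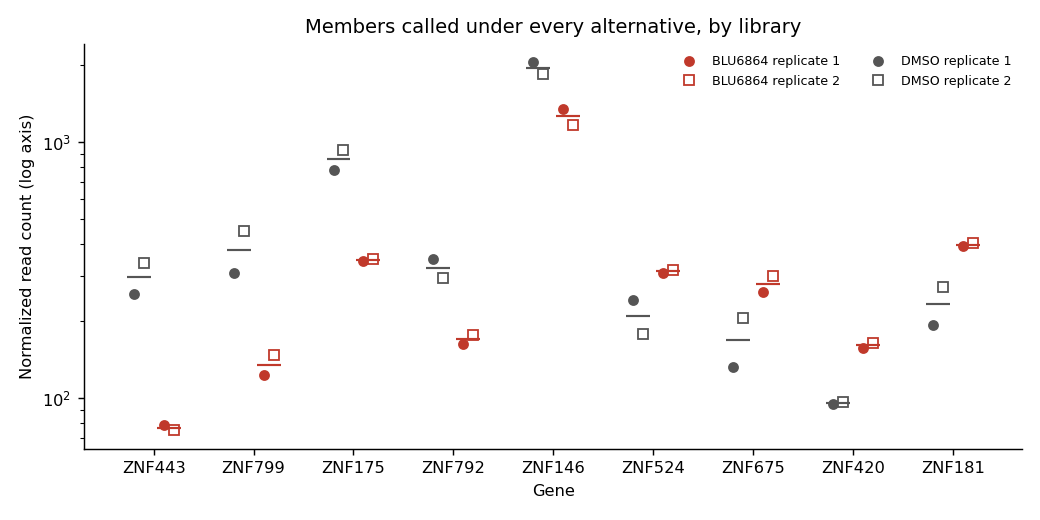
Normalized read counts (log axis) of the 9 members called under all 11 alternatives, ordered by log2 fold change; grey symbols are the DMSO libraries, red the BLU6864 libraries, filled circles replicate 1, open squares replicate 2, and lines the group means (n = 2). The 5 genes on the left are lower with BLU6864 and the 4 on the right are higher, with no overlap between groups.

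The design raised the question of whether members that lie together shift together. Joining members separated by at most 250 kb gave 14 clusters of at least 2 members and 12 single members. The 10 clusters with at least 5 tested members held 222 members, 139 of them tested, and are named by their first and last member. The calls counted in each cluster below stand beside 20.3% of all genes tested called higher and 22.0% called lower. Their median log2 fold changes were small, from 0.02 to 0.26, and above 0 in all 10 with the 4 libraries together. Without DMSO replicate 1 the ZNF317 to ZNF846 and ZNF737 to ZNF254 clusters both had a median of −0.11, and without BLU6864 replicate 2 the ZNF653 to ZNF791 cluster had −0.025. Without DMSO replicate 1 the median of ZNF577 to ZNF331 went from 0.10 to 0.012 and that of ZNF628 to ZNF581 from 0.17 to 0.27. Within a cluster the log2 fold changes of the members had an SD of 0.23 to 0.75.

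From the short-arm end, ZNF317 to ZNF846 (9251056 to 9903856) had 9 tested members, 2 higher and 2 lower, and a median of 0.02. Its called members included ZNF846 (0.69 ± 0.23) and ZNF121 (−0.51 ± 0.15), so that the direction was mixed. ZNF653 to ZNF791 (11594242 to 12750912), which contains ZNF443 and ZNF799, had 13 tested members, 1 higher (ZNF441) and those 2 lower, with a median of 0.10. ZNF627, the most abundant member there, had a log2 fold change of 0.26. The fall of ZNF443 and ZNF799 was thus not shared by the cluster, in which 8 of 13 members lay above 0.

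ZNF101 to ZNF486 (19779605 to 20311299) had 7 tested members, 2 higher (ZNF14 and ZNF90) and 0 lower, with a median of 0.23. ZNF737 to ZNF254 (20718631 to 24312654), the cluster with the longest run of members under 10 reads, had 8 tested of 28 members, ZNF675 alone called, and a median of 0.10. These primate-rich clusters hold members that bind retroelements, described below. ZNF302 to ZNF792 (35168544 to 35454953) was divided: of 5 tested members ZNF302 and ZNF181 were higher, ZNF792 was lower and the median was 0.26.

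ZNF565 to ZNF573 (36673188 to 38307940) had 15 tested members, 4 higher (ZNF565, ZNF260, ZNF420 and ZNF527), 1 lower (ZNF146) and a median of 0.24. ZNF575 to ZNF180 (44029649 to 45004576) had 21 tested members with 1 called, ZNF227 (0.37 ± 0.15), and a median of 0.16. ZNF577 to ZNF331 (52359055 to 54083523) had 16 tested of 37 members with 1 called, ZNF613, and a median of 0.10. In these last 2 clusters 15 of 21 and 10 of 16 tested members lay above 0, nearly all without a call.

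ZNF628 to ZNF581 (55987699 to 56156988) had 7 tested members, 3 higher (ZNF579, ZNF524 and ZNF580), 0 lower and a median of 0.17. It differed from the other clusters in base composition, with a median transcript GC content of 64.9% against 37.0% to 45.1% in the others. ZNF264 to ZNF446 (57702868 to 58992597), next to the long-arm telomere, was the largest with 44 members and 38 tested. There 7 were higher, 1 was lower (ZNF584) and the median was 0.17, with 27 of 38 above 0.

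**Figure D3:**
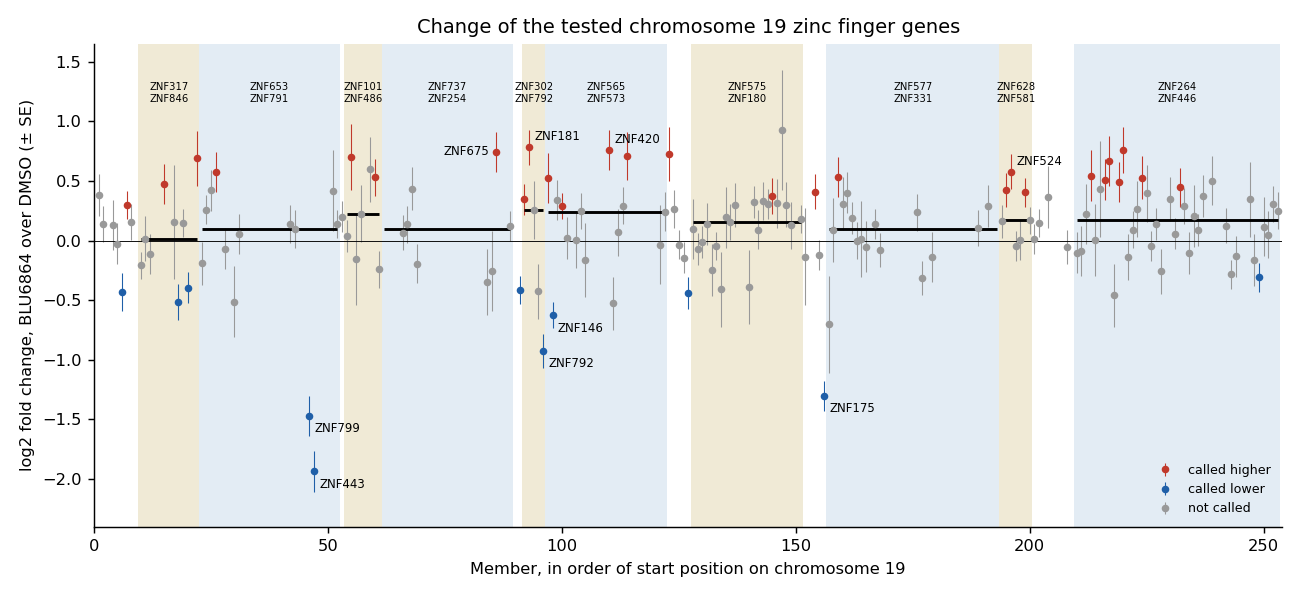
Log2 fold change of BLU6864 over DMSO (± SE) of the 161 tested members in order of start position; red marks members called higher, blue called lower, grey not called, shading the 10 clusters and black bars their medians. The medians lie between 0.02 and 0.26, single members run from −1.94 to 0.93, and the 9 members called under all alternatives are named.

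Neighbours resembled each other little more than members of different clusters did. Over 138 pairs of neighbouring tested members within a cluster, the median absolute difference in log2 fold change was 0.29, against 0.32 over 11532 pairs from different clusters. The sign was the same in 77 of the 138 pairs (55.8%), against 55.1% between clusters. Across the 138 pairs Pearson's r was 0.14, and it was 0.02 over the 136 pairs left without ZNF443 and ZNF799. Pairs share members and libraries, so this is a description. Neighbouring other genes of chromosome 19 gave an r of 0.20 over 676 pairs and a median absolute difference of 0.36.

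Both neighbours were called in the same direction in 5 pairs and in opposite directions in 2. The 5 were ZNF799 with ZNF443 (lower), and ZNF302 with ZNF181, ZNF579 with ZNF524, ZNF548 with ZNF17 and ZNF772 with ZNF419 (higher). The 2 were ZNF562 (lower) with ZNF846 (higher), and ZNF565 with ZNF146. The pairs of higher members lie 9.75 to 47.8 kb apart. In DESeq2 at least 1 member of each of these pairs lost its call, except in ZNF799 with ZNF443. Among the 676 pairs of neighbouring other genes of chromosome 19, 70 were called in the same direction and 22 in opposite directions.

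Whether likeness of the promoter window goes with likeness of the change was not tested, because same-cluster pairs with unlike windows were not summarized. Of 2408 pairs of members in the same cluster, 333 had windows that could be aligned over at least 150 bases with at least 80% identity, and 57 of these had both members tested. Their median absolute difference was 0.41, and the sign was the same in 25 of 57. Many of these pairs combine the same few genes of the ZNF737 to ZNF254 cluster, so the values are a description. In 3 of the 57 both members were called, each time in the same direction: ZNF443 with ZNF799, ZNF121 with ZNF562 (87.3% identical) and ZNF302 with ZNF181 (82.0%). In contrast, ZNF90 (0.53 ± 0.15) and ZNF486 (−0.24 ± 0.15) had windows 92.2% identical, and ZNF419 (0.76 ± 0.19) and ZNF773 (−0.14 ± 0.19) had windows 87.1% identical. ZNF419 and ZNF773 also share 9.52% of the 50-base words of ZNF419, and ZNF302 shares 8.88% of its own with ZNF181.

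The letters CCGGAAGT, searched on both strands, occurred in 45 of 217 member windows (20.7%), against 6.12% of the windows of 14943 other genes of the table. Members with these letters numbered 38 among the tested, 3 of them called higher (ZNF419, ZNF416 and ZNF586) and 1 lower (ZNF175), with a median log2 fold change of 0.13. Members without them numbered 107, with 22 higher, 10 lower and a median of 0.14. The share called was 10.5% with the letters and 29.9% without them, against 42.2% of all genes. Tested members with the letters were also less abundant, with a median normalized count of 112 against 163. The part of abundance in the share called was not tested. The cyclic AMP response letters TGACGTCA were in 3.23% of member windows (2.62% of others), the AP-1 letters TGACTCA in 5 of 217 (3.64% of others) and the E-box CACGTG in 4.15% (8.96%). These matches describe the windows and do not show binding.

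The values of the members differed between the 2 control libraries. For each tested member the log2 deviation from the mean of the 4 libraries was taken. Its median was 0.06 and 0.07 in BLU6864 replicates 1 and 2, but −0.12 in DMSO replicate 1 and −0.02 in DMSO replicate 2. Cluster medians of the difference between the 2 DMSO libraries ran from −0.27 to 0.35, and from −0.14 to 0.14 between the 2 BLU6864 libraries. Over the 161 members the DMSO difference (replicate 2 minus 1) went with GC content, with r = −0.42 and Spearman's rho = −0.42 as a description across genes, and the BLU6864 difference did not (r = 0.00). The log2 fold change of the same members had r = −0.05 and Spearman's rho = −0.09 with GC content. The part of GC content in the median of the members was not tested. The trend of the DMSO difference was not confined to members. Over 12395 tested genes with a GC value, r was −0.28 for the DMSO difference and 0.14 for the BLU6864 difference. The GC-rich ZNF628 to ZNF581 cluster was at −0.26 in DMSO replicate 2 and at 0.00 in DMSO replicate 1.

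**Figure D4:**
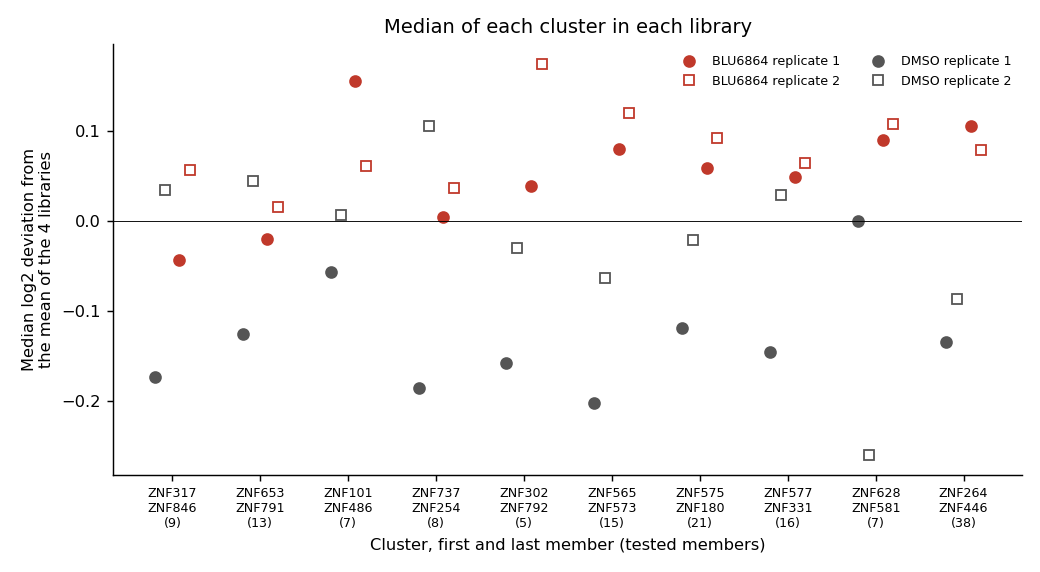
Median over the tested members of each of the 10 clusters (number in parentheses) of the log2 deviation from the mean of the 4 libraries; symbols as in the plot of the 9 members by library. DMSO replicate 1 is the lowest library in every cluster except ZNF628 to ZNF581, where DMSO replicate 2 is at −0.26.

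Among 16 members picked for a known role, 10 were tested and 1 was called, ZNF675 (10%, against 23.6% of all tested members and 42.2% of all genes). ZNF331, named for its breakpoints in thyroid adenomas, had 0 reads in all 4 libraries. ZNF274, which brings SETDB1 to the 3′ ends of zinc finger genes, had normalized counts of 452 and 473 with BLU6864 and 520 and 609 with DMSO, a log2 fold change of −0.28 ± 0.12 that missed the threshold (edgeR, adjusted p = 0.067). ZNF473, a factor of histone messenger RNA processing, had −0.12 ± 0.13, and ZNF444, which carries a SCAN domain, had 0.15 ± 0.12. ZNF653, a corepressor of nuclear receptors, had −0.19 ± 0.18 and ZNF296 had −0.13 ± 0.41. None of these passed the test.

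Of 5 members reported to lower MAP kinase, serum response or AP-1 reporter activity, ZNF383 (0.29 ± 0.16) and ZNF649 (0.09 ± 0.27) were tested and neither was called. ZNF382, ZNF569 and ZNF606 had between 1 and 8 reads in each library and were not tested. Of 5 that bind retroelements, ZNF91, which represses SVA elements, had 21 and 21 raw reads with BLU6864 and 28 and 22 with DMSO (−0.25 ± 0.34). ZNF765 (0.29 ± 0.17) and ZNF649 were not called, ZNF93, a repressor of LINE-1, had 1 read in all and ZNF808 had 0.

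The corepressors on which KRAB zinc finger proteins depend were more abundant. Of 21 listed genes 20 were found and tested, with a median log2 fold change of −0.12. Of these, 1 was called higher (5%, against 20.3% of all genes) and 5 lower (25%, against 22.0%). TRIM28 had normalized counts of 4977 and 4962 with BLU6864 and 6042 and 4713 with DMSO (−0.11 ± 0.12), and SETDB1 had a log2 fold change of 0.07 ± 0.11. The DNA methyltransferase DNMT3B was called higher, with 1020 and 1070 against 492 and 533 (1.03 ± 0.11, edgeR adjusted p = 3.6e-08). Lowest were MORC2 (−0.43 ± 0.12) and FAM208A (−0.41 ± 0.10), which act in silencing by the HUSH complex. MPHOSPH8 (−0.08 ± 0.11) and PPHLN1 (0.11 ± 0.11), also of that complex, were not called. CBX1, DNMT1 and HDAC2 were the other 3 called lower, with log2 fold changes of −0.27, −0.33 and −0.27.

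Of 17 other C2H2 zinc finger genes of chromosome 19 named ZFP, ZSCAN, ZIM, ZIK, ZBTB or otherwise, 7 had 0 reads and 6 were tested. ZFP14 was the only one called (16.7% of those tested, against 42.2% of all genes). It had normalized counts of 128 and 111 with BLU6864 and 54.9 and 78.8 with DMSO (log2 fold change 0.85 ± 0.20, edgeR adjusted p = 0.0014). ZFP14 thus rose, while the remaining 5 had log2 fold changes from −0.34 to 0.29.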

How the data were processed

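RNA sequencing was analysed for 4 TPC1 libraries, 2 with BLU6864 for 6 h and 2 with DMSO, grouped by the labels. Per the labels, TruSeq libraries gave 50 bp single-end reads, and the processing notes of the submitters list hg19, STAR 2.3 and DESeq2. The methods of the study, written for more experiments, describe paired-end reads. How reads were assigned to genes (tool, annotation release, strand, reads matching several genes) is not given in the sources used here, so overlapping, antisense and near-identical genes can share reads.

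The authors deposited 1 table of raw counts with gene positions (hg19). It also held normalized counts, a signal the authors made by dividing each count by a size factor of its library, and the authors' own comparison columns (fold changes and p-values), which were not used. Every row named a gene.

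The test was the two-sided quasi-likelihood F test of edgeR 4.0.16 (R 4.3.3) on the counts, with filterByExpr, TMM factors and group as the sole factor. Benjamini-Hochberg adjustment ran over all 12696 genes that passed the filter, a call needed an adjusted p under 0.05, and SEs came from the F statistic. Of 180 measured members, 161 passed this filter. Deviations and library differences used log2 of the normalized count with a pseudocount of 0.5. The test was also run on simulated counts in which few genes changed and libraries of a group differed only by random noise. These data differ in both respects, so that run does not bear on the calls given here. The 11 alternatives were RLE and upper-quartile factors, DESeq2 1.42.0, 2 other filters, a replicate block, each library left out, and offsets for GC content and length. The offsets were chosen after seeing the data. The fold and p limits of the study's methods were used only to count calls and are not among the 11.

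Transcript length, GC content and shared 50-base words came from GENCODE release 44, with 244 members matched, and promoter windows from RefSeq (GRCh38.p14), with 217 matched by symbol and aligned with Biopython. Their coordinates are in another build than those of the table and were not converted. Protein features were not analysed here.

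Members, lists and tests were chosen with earlier results of these data known. Named members were the 8 lowest and 8 highest called log2 fold changes at a mean normalized count of 100 or more with groups apart, the top call per direction and the most abundant member of each cluster, and 16 fixed for known roles. Further members, chosen after seeing values, complete a count or a pair.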

Additional observations from a re-analysis of the deposited data

How the results depend on the processing

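With 2 libraries per group, 29 of the 38 calls were lost under at least 1 alternative. With a library left out, its group has 1 library. A lost call therefore does not show that the call rested on that library. The number called over all genes also changed with the setting. Members called higher numbered 27, and 9 in DESeq2, 6 to 36 with a library left out and 14 at a log2 fold change beyond 0.5 with an unadjusted p under 0.01. Members called lower numbered 11, with 5 to 15 and 6 in the last 2 settings. The members' median of 0.14 was 0.19 with upper-quartile factors, which moved the median of all genes from 0.01 to 0.07, and 0.093 to 0.19 with a library left out. Upper-quartile factors gave 0.21 for the ZNF575 to ZNF180 cluster and 0.23 for ZNF264 to ZNF446. Offsets for GC content and length, chosen after seeing the data, gave 0.13 for ZNF101 to ZNF486, 0.15 for ZNF565 to ZNF573 and 0.23 for ZNF264 to ZNF446. A mean of at least 50 reads gave 0.15 for ZNF101 to ZNF486, and joining members up to 500 kb apart raised the lowest cluster median to 0.08. With a library left out, cluster medians ran from −0.11 to 0.13 for ZNF317 to ZNF846, −0.025 to 0.20 for ZNF653 to ZNF791, 0.089 to 0.37 for ZNF101 to ZNF486, −0.11 to 0.28 for ZNF737 to ZNF254, 0.16 to 0.34 for ZNF302 to ZNF792, 0.19 to 0.35 for ZNF565 to ZNF573, 0.13 to 0.18 for ZNF575 to ZNF180, 0.012 to 0.16 for ZNF577 to ZNF331, 0.12 to 0.27 for ZNF628 to ZNF581 and 0.15 to 0.26 for ZNF264 to ZNF446. The sign for ZNF317 to ZNF846 and ZNF737 to ZNF254 turned without DMSO replicate 1, and that for ZNF653 to ZNF791 without BLU6864 replicate 2. The cause of these shifts was not tested.

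The replicate numbers are shared by both groups but nothing says that they pair the libraries, and deviations of same-numbered libraries correlated at 0.14 over 12696 genes. A replicate block gave 34 members called higher and 13 lower. No named gene changed direction while called.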
